A study of Mus musculus with 4 samples.

Results

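Putative spiral ganglion neurons are a class of cochlear cells that the authors' deposited cell annotation keeps apart from type I and type II neurons. The 505 cells that carry this label, out of 6713 annotated cells, were described here for the type I and type II programmes they express, and no other rule was used to choose them. They came from 4 wild-type CBA/CaJ mice, males aged 9 weeks, with 58 cells in mouse 1, 181 in mouse 2, 121 in mouse 3 and 145 in mouse 4. They were compared with 95 type II neurons and 6113 type I neurons, of which 2384 were IA, 1625 IB and 2104 IC cells, from the same animals and libraries. The spiral ganglia had been dissected with neighbouring limbus, sulcus and organ of Corti tissue, dissociated with collagenase and papain, and captured in droplets with 10x Genomics v2 chemistry, which counts molecules by unique molecular identifiers (UMIs) near transcript 3' ends. How the label was given is not stated in the sources used here. Since it was set on these same cells, differences in gene level describe the class and are no independent evidence for it. No cell in the annotation carries a non-neuronal label, so the levels of other cell types in the same dissections were not analysed here.

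Spiral ganglion neurons carry sound signals from cochlear hair cells to the brainstem. Type I neurons are myelinated, contact inner hair cells and fall into subtypes marked by calretinin (Calb2, type IA), by calbindin (Calb1, type IB) and by Lypd1 and Pou4f1 (type IC). The unmyelinated type II neurons contact outer hair cells and are known for peripherin (Prph) and tyrosine hydroxylase (Th). Each type I cell body is wrapped by a satellite glial cell, and the ganglion lies beside bone and connective tissue rich in fibroblasts and fibrocytes, whose secreted proteins include cochlin (Coch).

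The class took 4.68% of the cells of mouse 1 (exact 95% binomial interval 3.58% to 6.01%), 8.11% of mouse 2 (7.01% to 9.32%), 7.03% of mouse 3 (5.87% to 8.35%) and 9.52% of mouse 4 (8.09% to 11.1%). These intervals cover counting error only. The cells were shallow. Their median UMI count was 8924, 5502, 4704 and 3459 in mice 1 to 4, and 43.4% ± 11.4 of them held fewer than 4000 UMIs, against 3.49% in type II, 7.42% in IA, 5.15% in IB and 5.36% in IC cells (means over mice, with SD, n = 4 mice, here and below). Among cells with at least 4000 UMIs the class took 4.4% ± 0.77. The median share of mitochondrial UMIs was 9.02% ± 1.39, against 5.72% in type II and 7.15% to 10.3% in the type I subtypes. The UMIs of the class came to 4315583, and the libraries held 15151343 to 27309045. Of the cell barcodes 26 occurred in 2 libraries, and 2 putative cells carried such a barcode.

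Each putative cell was matched to the type whose marker genes it resembled most. Up to 30 marker genes a type were chosen in type I and type II cells of the other 3 mice, every cell was thinned to 2000 UMIs, and a match was called where 1 type was at least 20 times as likely as the next. Of the 505 cells, 107 matched type IA, 76 type IB, 122 type IC and 95 type II, and 105 matched no type at this ratio. The mean over mice was 61.7% ± 7.08 for the type I subtypes together, 18.8% ± 3.01 for type II and 19.6% ± 6.45 for none. The same procedure on the labelled cells of a mouse left out left 5.31% of type II, 11.2% of IA, 31.4% of IB and 7.16% of IC cells unmatched. Among labelled cells with a match it returned the label of 86.5% of type II, 96.9% of IA, 91.7% of IB and 97.0% of IC cells. Thinned putative cells held a median of 18.9 marker UMIs, against 27.9 in type II, 28.8 in IA, 14.8 in IB and 17.0 in IC cells.

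**Figure D1:**
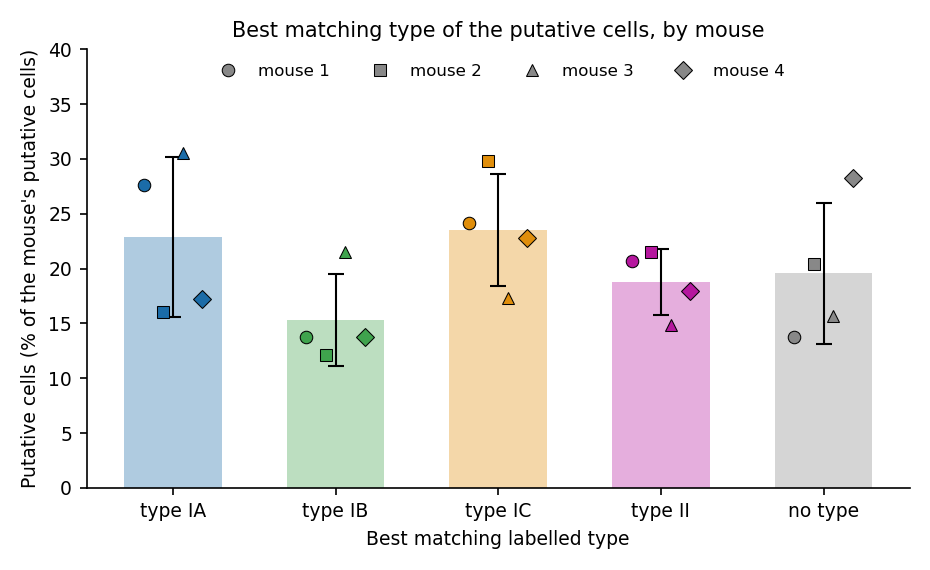
Share of putative cells (percent, y axis) matched to type IA, IB, IC, type II or no type (x axis); bars are means over 4 mice, lines their SD and points single mice. The type I subtypes took 22.9%, 15.3% and 23.5% of the cells, type II 18.8% and no type 19.6%.

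All 3 type I subtypes occurred in the class in every mouse. Of the putative cells with a type I match, 36.5% ± 7.90 were IA, 24.6% ± 4.74 IB and 38.9% ± 11 IC, against 40.4% ± 2.19, 21.9% ± 1.85 and 37.7% ± 1.22 of matched labelled type I cells. The difference, putative minus labelled, was -3.90 ± 8.67 percentage points for IA, 2.73 ± 3.97 for IB and 1.17 ± 10.4 for IC. An exact two-sided sign-flip permutation test over the mice gave p = 0.5, 0.25 and 0.75 (0.75 for each after Benjamini-Hochberg adjustment over the 3 tests), and its 16 arrangements allow no p below 0.125, so the test shows neither a difference nor its absence. The makeup differed most between mice for type IC, which made up 51.4% of the type I matches in mouse 2 and 25% in mouse 3. For each subtype the SD of the difference over mice was larger than the difference itself.

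Within a matched group the mix of markers was close to that of labelled cells, given here as a description since these markers made the match. In IA-matched putative cells 84.4% ± 1.38 of the marker UMIs came from IA markers and 4.18% ± 0.88 from IC markers, against 84.5% ± 0.33 and 4.4% ± 0.59 in labelled IA cells that were matched the same way. IB-matched putative cells drew 44.1% ± 1.79 of their marker UMIs from IB markers, against 43.8% ± 1.30 in labelled IB cells. For IC the share was 63.1% ± 3.33, against 66.0% ± 2.34. Compared within mice, the IC share was lower in putative cells in each mouse. It was 61.3%, 66.9%, 59.4% and 64.7% in mice 1 to 4, against 63.7%, 69.3%, 65.3% and 65.7% in labelled cells. For IA and IB the direction differed between mice.

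Genes that the matching did not use gave a second view of the subtypes. The 30 genes a subtype that ranked 31 to 60 as its markers summed to 3618 ± 907 CPM (UMI counts scaled to a common total per sum) for IA genes in IA-matched putative cells, against 3895 ± 1036 in labelled IA cells, and stood at 2109 ± 660 in IC-matched putative cells, against 2310 ± 695 in labelled IC cells. IB genes summed to 2552 ± 288 CPM in IB-matched putative cells and 2731 ± 416 in labelled IB cells. IC genes summed to 2621 ± 148 CPM in IC-matched putative cells and 2875 ± 70.9 in labelled IC cells, and to 1193 ± 87.4 in IA-matched putative cells, against 1333 ± 51.9 in labelled IA cells. The order of the matched groups was thus that of the labelled subtypes, and each of these means lay below that of the labelled cells.

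Single subtype genes showed the same order. Calb2, the calcium buffer calretinin (chromosome 8, 110137502 to 110168210, minus strand), was used for matching and stood at 9824 ± 1184 CPM in IA-matched, 2113 ± 625 in IB-matched and 632 ± 136 in IC-matched putative cells, against 9866 ± 844, 2458 ± 287 and 719 ± 116 in labelled IA, IB and IC cells. Lypd1, a modulator of nicotinic receptors (chromosome 1, 125867622 to 125913101, minus strand), was also used and stood at 96.9, 119 and 2907 CPM, against 110, 200 and 2953. Slc17a6, the vesicular glutamate transporter VGLUT2, was not used. It stood at 12.4 ± 2.89 CPM in IA-matched, 138 ± 55.1 in IB-matched and 211 ± 23.0 in IC-matched putative cells, against 19.8 ± 1.10, 160 ± 11.7 and 207 ± 19.7 in the labelled subtypes. Runx1, a transcription factor, stood at 17.4 ± 13.1, 67.4 ± 11.6 and 74.7 ± 17.9 CPM, against 12.3 ± 0.50, 81.3 ± 8.83 and 86.7 ± 2.09. Ntng1, which encodes the adhesion molecule netrin-G1, stood at 18.8 ± 10.2, 257 ± 108 and 308 ± 24.1 CPM, against 24.5 ± 1.00, 248 ± 18.5 and 307 ± 9.59. For each of these genes not used for matching, type IA was low and types IB and IC high in putative and in labelled cells alike. Khdrbs2, a splicing regulator gene, stood at 5.62 ± 4.39 CPM in IB-matched putative cells (4 UMIs), against 19.1 ± 1.42 in labelled IB cells. Its levels were 1.18 and 25.5 CPM in IA-matched and IC-matched putative cells, against 1.70 and 33.9 in labelled IA and IC cells.

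**Figure D2:**
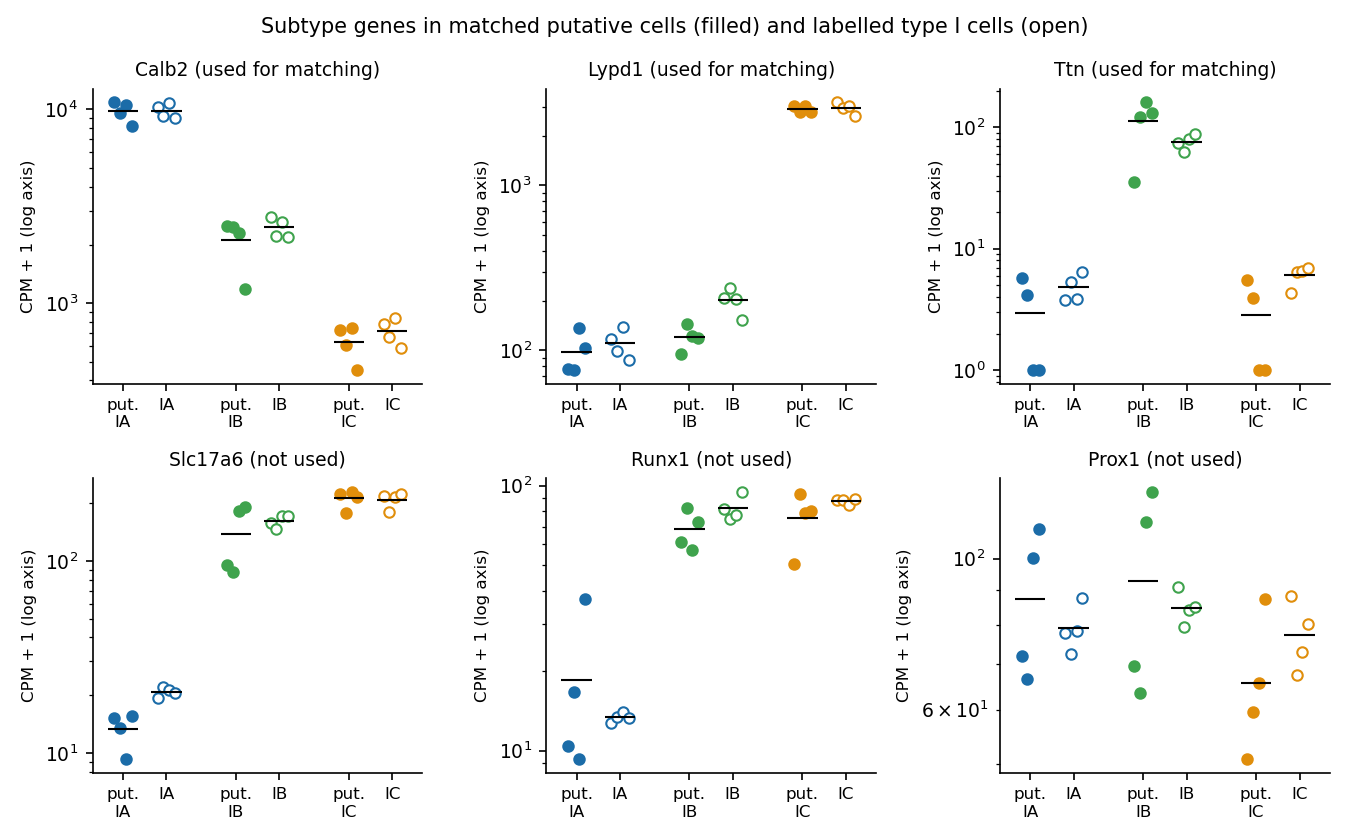
Level of 6 genes (CPM + 1, log axis; each title states whether the gene was used for matching) in putative cells matched to IA, IB and IC (filled points) and in labelled IA, IB and IC cells (open points); points are single mice and lines their means. Filled and open points follow the same order of means across the subtypes for Calb2, Lypd1, Slc17a6 and Runx1, such as Calb2 with means of 9824 and 9866 CPM in the IA columns. Ttn is highest in IB in both, and Prox1 differs little between subtypes.

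In the class as a whole the subtype genes lay between their levels in the single subtypes. Calb2 stood at 4642, 2926, 4969 and 1883 CPM in putative cells of mice 1 to 4, against a mean of the 3 subtypes (type I mean below) of 3950 to 4764. Lypd1 stood at 1024 ± 180 CPM, against 1088 ± 88.5 for the type I mean. Ttn, which encodes the giant muscle protein titin and marks type IB here (chromosome 2, 76703980 to 76982547, minus strand), stood at 25.2 ± 12.3 CPM, against 27.9 ± 3.8. Prox1, a transcription factor gene of type I neurons, stood at 71.3 ± 12.6 CPM, against 8.27 ± 7.89 in type II and 79.3 ± 5.74 for the type I mean. In all these cases the putative range overlapped the type I mean.

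Sums of UMIs per mouse and population were compared by edgeR (quasi-likelihood fit, mouse as block), with a Benjamini-Hochberg adjusted p under 0.05 as the threshold over 13005 genes. Against the type I subtypes 3031 genes, 23.3% of those tested, differed in the class, with 1843 (14.2%) higher and 1188 (9.13%) lower and a median log2 difference over all genes of -0.01. Without mouse 2 the count was 1899. Set against single subtypes, the class differed in 3591 genes from IA (27.6%; 16.2% higher and 11.4% lower), in 2970 from IB (22.8%; 13.4% and 9.43%) and in 3060 from IC (23.5%; 13.5% and 10%). Without mouse 2 these last counts were 1826 for IB and 2003 for IC. Leaving out cells high in non-neuronal RNA gave 1375 of 12985 genes against type I (10.6%; 1070 higher, 8.24%, and 305 lower, 2.35%). Leaving out cells with 3 or more Fabp7 UMIs gave 2038 of 12996 (15.7%; 1345 higher, 10.3%, and 693 lower, 5.33%). In the fit an equal mixture of subtypes lies above the mean of the subtypes' logarithms for a gene whose level differs between them. The class is not an equal mixture, and it also holds cells matched to type II or to no type. The part of such mixing in the calls was not tested. Slc17a6 was called higher (0.33 on the log2 scale) at 109 ± 11.4 CPM in putative cells, against 129 ± 9.82 CPM for the type I mean. Of the 12 genes of each subtype list, 6 IA, 3 IB and 9 IC genes were called higher, and none of IA or IC and 1 of IB lower. Counts of subtype genes in this comparison are not read further. A second pair of fits, added after the data had been seen, compared matched putative cells with the labelled cells of the same subtype. It called 1593 of 11973 genes (13.3%; 778 higher, 6.5%, and 815 lower, 6.81%), and 1283 of 11852 (10.8%; 611 higher, 5.16%, and 672 lower, 5.67%) once cells high in non-neuronal RNA were left out of both sides. The median log2 differences over all genes were -0.07 and -0.08. In the first of these fits the IA list had 1 gene higher and 1 lower of 11 tested. The IB list had 0 and 1 of 12, and the IC list 1 and 1 of 11. In the second the IA and IB counts were equal to these and the IC list had 0 and 2. Several genes of these lists, among them Calb2, Ttn and Lypd1, were markers of the matching that chose the putative cells. The labelled cells were not chosen by matching. These counts of subtype genes are therefore a description.

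The type II programme was close to absent from the class. Of the 18 type II list genes, all 18 were lower in putative cells than in type II neurons (median log2 difference -5.65), in a comparison that called 1739 of 13005 genes (13.4%; 905 higher, 6.96%, and 834 lower, 6.41%) and 1075 without mouse 3. Prph (chromosome 15, 99055174 to 99058978, plus strand) stood at 1.39, 4.37, 1.89 and 4.28 CPM in putative cells of mice 1 to 4, against 165 to 895 CPM in type II and 0.68 to 1.64 for the type I mean. Its 14 UMIs lay in 13 cells, and the log2 difference from type II was -7.05 ± 0.24 (SE; edgeR adjusted p = 8.0e-29). At 2000 UMIs a cell, 0.66% ± 0.47 of putative cells held a Prph UMI, against 49.4% ± 9.67 of type II and 0.06% to 0.35% of type I cells, and without thinning the shares were 2.33% ± 1.04, 61.8% ± 14.6 and 1.25% to 1.80%. Dupd1, a dual-specificity phosphatase gene, stood at 8.16 ± 7.14 CPM, against 1197 ± 452 in type II (-7.37 ± 0.19, adjusted p = 5.4e-34). Th, which makes the precursor of dopamine, had 4 UMIs in the class (0.93 ± 0.90 CPM), against 112 ± 54.0 CPM in type II (-6.76 ± 0.43, adjusted p = 1.1e-17). Gata3, a transcription factor retained by adult type II neurons, stood at 34.9 ± 8.65 CPM, against 324 ± 85.7 in type II (-3.17 ± 0.16, adjusted p = 6.0e-22) and 39.8 ± 1.4 for the type I mean. No putative value of these genes reached the lowest type II value. Against type I, where 14.2% of all genes were higher, 5 of the 18 genes were called higher, all at low level. Of these Myl1, a myosin light chain gene, stood at 61.0 ± 9.80 CPM, against 5185 ± 1898 in type II and 22.2 ± 3.82 for the type I mean. The others were Syt1 (22 UMIs), a synaptotagmin, Dupd1 (29), Prph (14) and the transcription factor gene Etv4 (9). Without cells with 3 or more Fabp7 UMIs 1 of 16 tested genes was higher, and without cells high in non-neuronal RNA 1 of 18. The Prph call against type I was lost without mouse 2 (log2 difference 0.82, adjusted p = 0.49) and without mouse 4 (1.55, 0.084). Dupd1 lost it without mouse 1 (1.01, 0.13) and mouse 4 (1.46, 0.057), and Etv4 without mice 2, 3 or 4 (1.57 to 2.11, 0.12 to 0.21).

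**Figure D3:**
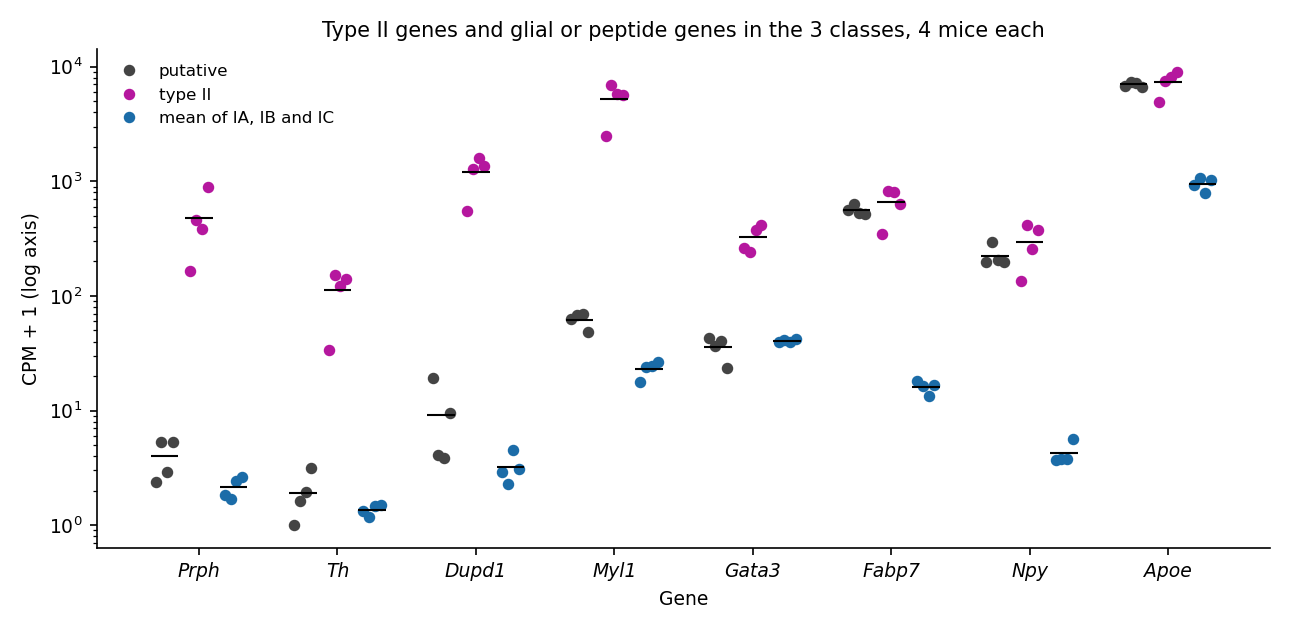
Level (CPM + 1, log axis) of 5 type II genes and of Fabp7, Npy and Apoe in putative cells, type II neurons and the mean of the type I subtypes; points are single mice and lines their means. Prph lay between 165 and 895 CPM in type II and at most at 4.37 CPM in putative cells, while Fabp7, Npy and Apoe of putative cells overlapped type II.

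The 95 putative cells that matched type II carried satellite glia transcripts and few other type II genes. Fabp7, the brain fatty acid-binding protein of glia (chromosome 10, 57784881 to 57788450, plus strand), and Npy, neuropeptide Y, were among the type II marker genes of the matching in all 4 mice left out. Together they made up 92.8% ± 1.63 of the 2174 type II marker UMIs in these cells, against 12.7% ± 0.72 of the 2059 in the 78 labelled type II cells that matched type II. Of the 95 cells, 90 held 3 or more Fabp7 UMIs. Their Fabp7 level was 7146 ± 1383 CPM, Npy 2774 ± 588 and Apoe, the glial lipid carrier apolipoprotein E, 70914 ± 18357, against 655 ± 225, 296 ± 129 and 7365 ± 1772 in type II neurons. Prph stood at 19.2 ± 14.9 CPM, against 475 ± 306 in type II, Myl1 at 535 ± 164, against 5185 ± 1898, and Gata3 at 22.3 ± 18.9, against 324 ± 85.7. The type II genes ranked 31 to 60, also chosen anew for each mouse, summed to 561 ± 224 CPM in them, against 1847 ± 460 in type II neurons and 80.6 to 95.6 in the type I subtypes. Their sum of type II genes outside the matching set thus lay between type I and type II neurons. The other putative groups were also above type I, at 141 ± 10.1 CPM in IA-matched, 182 ± 32.0 in IB-matched, 164 ± 30.8 in IC-matched and 213 ± 35.1 in unmatched cells.

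Neuronal transcripts were low in these 95 cells. The 25 genes of the neuron list summed to 4857 ± 952 CPM, against 19497 ± 3373 in type II and 24867 to 25559 in the type I subtypes. Snap25, a synaptic vesicle fusion protein gene, stood at 566 ± 238 CPM, against 2305 ± 865 in type II and 4281 ± 125 for the type I mean. Prox1 stood at 1.71 ± 3.41 CPM. The 16 genes of the satellite glia list summed to 86098 ± 20164 CPM, against 10198 ± 2132 in type II and 2892 to 3061 in the type I subtypes. In the median cell of the group 8.50% of UMIs came from the satellite list and 0.314% from the neuron list, against medians of 0.291% and 2.47% in type I cells. A neuron share below the lowest percentile of type I cells (1.68%) was found in 92 of these 95 cells (96.8%), in 56 of the 105 cells with no match (53.3%), in 41 of the 305 cells with a type I match (13.4%) and in 189 of all 505 putative cells (37.4%).

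**Figure D4:**
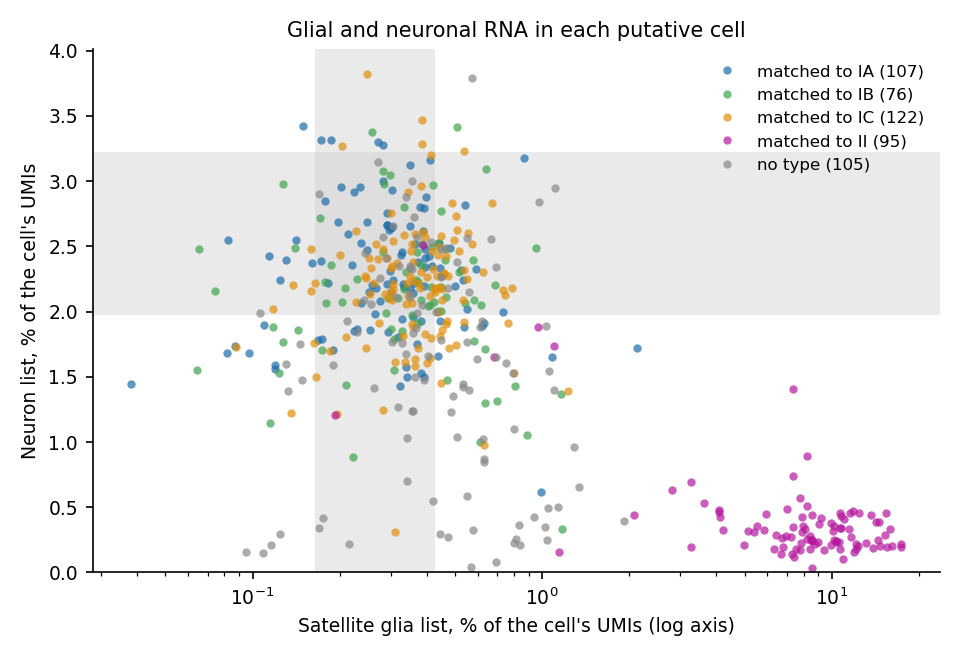
Share of each putative cell's UMIs from the satellite glia list (x axis, percent, log) and from the neuron list (y axis, percent), coloured by matched type; grey bands run from the 0.05 to the 0.95 quantile of type I cells. The cells matched to type II lie apart at the lower right, with a median of 8.50% satellite and 0.314% neuron UMIs.

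Cells with 3 or more Fabp7 UMIs made up 12, 39, 19 and 26 of the putative cells of mice 1 to 4, or 15.7% to 21.5%, against 26.1% to 60.9% of type II cells and at most 1.48% of any type I subtype in a mouse. Without them 0.983% of the remaining 409 cells matched type II and 78.4% matched type I, a change that follows from the use of Fabp7 as a type II marker in the matching. The whole class stood at 562 ± 53.9 CPM for Fabp7, 223 ± 48.9 for Npy and 7003 ± 348 for Apoe, against 655 ± 225, 296 ± 129 and 7365 ± 1772 in type II and 15.1 ± 1.94, 3.22 ± 0.92 and 953 ± 127 for the type I mean. Against type I the log2 differences were 5.23 ± 0.10 for Fabp7, 6.18 ± 0.13 for Npy and 2.89 ± 0.08 for Apoe (edgeR adjusted p = 1.3e-39, 6.7e-39 and 6.2e-33). Against type II none of these genes was called in edgeR over all cells and mice (adjusted p = 0.82, 0.43 and 0.96), and the direction changed with the setting. Without mouse 1 Fabp7 (-0.38, adjusted p = 0.0060) and Npy (-0.45, 0.024) were lower. In cells thinned to 2000 UMIs Fabp7 (0.95, 1.5e-13) and Npy (0.68, 0.0022) were higher, with a median over all genes of 0.35 there. With equal numbers of cells Apoe was lower (-0.59, 0.033). Fabp7 and Npy were among the type II markers of the matching, which thus weighs against cells rich in them. Among type I-matched cells 1 of 305 held 3 or more Fabp7 UMIs, against 96 of all 505 putative cells. Values of satellite genes in type I-matched cells are therefore a description with no test. The log2 differences there were -0.53 ± 0.29 for Fabp7, 1.35 ± 0.41 for Npy and 0.81 ± 0.04 for Apoe. Of 15 satellite list genes tested, 9 were higher and none lower against type I over the whole class, 5 were higher and 1 lower of 14 in type I-matched cells, and 4 of 15 were higher and none lower without the cells high in non-neuronal RNA. Over all genes 14.2%, 6.5% and 8.24% were higher in these fits, in that order. The satellite list was among those that picked the cells left out, so the last count is a description too. Ednrb, the endothelin B receptor of glia, was not itself a matching marker. Its log2 difference was 3.16 ± 0.11 over the class (edgeR adjusted p = 2.4e-28) and -0.57 ± 0.37 in type I-matched cells, the latter under the same limit. Within mice the satellite and neuron shares of putative cells had Spearman's rho of -0.53, -0.52, -0.40 and -0.50 (58, 181, 121 and 145 cells of mice 1 to 4; shares of 1 total, given as a description).

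The 4 genes given as marks of the class were above the type I mean in every mouse. Fosb, a subunit of the AP-1 transcription factor (chromosome 7, 19302696 to 19310051, minus strand), stood at 280, 260, 216 and 288 CPM in mice 1 to 4, against 97.3 to 264 in type II and 49.7 to 69.7 for the type I mean. Coch, cochlin (chromosome 12, 51593341 to 51605771, plus strand), stood at 755, 761, 621 and 825 CPM, against 154 to 324 in type II and 134 to 220 for the type I mean. Apod, the lipid carrier apolipoprotein D (chromosome 16, 31296192 to 31314808, minus strand), stood at 854, 1266, 616 and 1058 CPM, against 310 to 494 and 238 to 401. Zfp36l1, an mRNA decay factor (chromosome 12, 80107754 to 80113013, minus strand), stood at 224, 196, 155 and 233 CPM, against 30.4 to 109 and 40.1 to 60.9. The putative range overlapped type II only for Fosb, and it overlapped the type I mean for none. These genes were chosen on the same libraries, so their calls are no independent evidence. The coordinates are those of the mouse build GRCm38, and all 4 genes are protein-coding.

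These differences were close in size in cells that carried a type I subtype programme. Fosb stood at 298, 247, 171 and 190 CPM in IA-matched cells of mice 1 to 4, at 261 ± 121 in IB-matched and at 281 ± 33.7 in IC-matched cells, against 61.1 ± 11.9, 62.6 ± 9.68 and 64.5 ± 8.50 in labelled IA, IB and IC cells. Coch stood at 973 ± 227 CPM in IA-matched, 583 ± 179 in IB-matched and 499 ± 137 in IC-matched cells, against 183 ± 37.7, 189 ± 40.8 and 194 ± 41.2. The matched fit gave log2 differences of 1.92 ± 0.09 for Fosb, 1.77 ± 0.07 for Coch, 1.53 ± 0.06 for Apod and 1.83 ± 0.08 for Zfp36l1, against 2.04 ± 0.08, 1.98 ± 0.06, 1.56 ± 0.05 and 1.90 ± 0.07 over the whole class. At 2000 UMIs a cell 31.3% ± 6.23 of putative cells held a Fosb UMI, against 15.5% in type II and 10.6% to 11.4% in the type I subtypes, while without thinning the shares were 58.8%, 52.2% and 46.6% to 51.5%. For Coch the thinned share was 51.0%, against 33.0% in type II and 28.5% to 32.1% in the type I subtypes. The unthinned shares of Coch ran the other way, with 73.8% of putative cells, against 82.1% to 87.0% in the type I subtypes, whose cells are deeper. The gene was thus found in most cells of all classes.

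Coch and Apod belong to a wider set of connective tissue transcripts. Of 15 fibroblast and fibrocyte list genes tested, which include Coch and Apod, 13 were higher and 1 lower in the class than in type I. The median log2 difference was 1.56, with 14.2% of all genes higher. In type I-matched cells 12 were higher and 1 lower (median 1.01, with 6.5% of all genes higher and 6.81% lower there). The lower one over the class was Igfbp6, an insulin-like growth factor binding protein gene, at -0.32 ± 0.07 (adjusted p = 0.0012). Dcn, the collagen-binding proteoglycan decorin, stood at 178, 362, 139 and 284 CPM in mice 1 to 4, against 79.2 ± 64.0 in type II and 50.5 ± 11.1 for the type I mean (2.26 ± 0.08 against type I, adjusted p = 1.2e-27). Pdgfra, the platelet-derived growth factor receptor of fibroblasts, differed by 2.37 ± 0.27, and Col3a1, a fibrillar collagen, by 2.22 ± 0.35. The summed list stood at 5221 ± 1527 CPM in the class, against 3132 ± 780 in type II and 2564 to 2828 in the type I subtypes, and all 16 genes had UMIs in the class. In type I-matched cells it stood at 4604 to 5506 CPM by subtype. Otos, the fibrocyte protein otospiralin, was called (0.78 ± 0.11) with only 2 of 4 mice higher, at 123, 525, 81.1 and 515 CPM in mice 1 to 4, against 71.7 to 332 in type II and 106 to 241 for the type I mean. A single cell held 17.7% of its UMIs.

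The 5 largest increases by the naming rule were Npy, Fabp7, Acsbg1, Ednrb and Hes5, and Foxc1, Abi3bp, Dapl1, Tnfrsf11b and Apoe came next. These genes form no list and were not tested as one. Otor, named for its difference from type II and encoding otoraplin, a secreted protein of cochlear fibrous tissue and cartilage (chromosome 2, 143078473 to 143081713, plus strand), stood at 194, 144, 158 and 121 CPM in mice 1 to 4, against 12.8 to 38.0 in type II and 19.4 to 30.6 for the type I mean. Its difference from type I was 2.65 ± 0.09 over the class (adjusted p = 2.5e-29) and 2.65 in type I-matched cells, where mouse 4 had none in IA-matched cells. Foxc1, a forkhead transcription factor of mesenchyme, stood at 24.7 ± 3.23 CPM, against 0.640 ± 1.28 in type II and 3.19 ± 1.4 for the type I mean (2.99 ± 0.22 against type I, adjusted p = 3.8e-16). Tnfrsf11b, the bone resorption inhibitor osteoprotegerin, differed by 2.95 ± 0.20 and Abi3bp, an extracellular matrix protein gene, by 2.97 ± 0.24. Otor, Foxc1, Tnfrsf11b and Abi3bp kept a log2 difference above 2.5 in type I-matched cells. The transcription factors Pou3f4 and Tbx18, both known for the otic mesenchyme, were picked after their values had been seen. Pou3f4 stood at 27.2 ± 7.40 CPM, against 10.7 ± 8.05 in type II and 4.32 ± 0.32 for the type I mean (2.61 ± 0.21, adjusted p = 1.2e-14), and Tbx18 at 18.5 ± 3.84 CPM, against 4.74 ± 4.19 and 2.6 ± 0.48 (2.86 ± 0.23, 1.4e-14).

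Transcripts of blood vessels moved too, at low level. Of 9 endothelial genes tested 8 were higher and none lower than in type I, and of 9 mural cell genes 7 and none, while of 11 macrophage and leukocyte genes 1 was higher. Of the other lists, 3 of 8 osteoblast, 7 of 13 supporting cell, 5 of 9 stria and 3 of 6 erythroid genes were higher and none lower, and of 3 hair cell genes none was higher and 1 lower, where 14.2% of all genes were higher and 9.13% lower. Without the cells high in non-neuronal RNA (8.24% of all genes higher) 6 of 9 endothelial and 4 of 8 mural genes were higher. The osteoblast, supporting cell and stria counts there were 2 of 8, 4 of 13 and 4 of 9. In that fit edgeR called none of the 6 erythroid genes (1, Alas2, at an unadjusted p under 0.05). These lists were among those that picked the cells left out, so these counts are a description. Emcn, endomucin of vessel linings, stood at 116 ± 44.2 CPM, against 32.0 ± 15.9 in type II and 31.2 ± 6.26 for the type I mean (1.86 ± 0.10, adjusted p = 4.4e-22). The summed endothelial list stood at 225 ± 68.7 CPM, against 101 ± 4.84 in type II and 83.8 to 89.9 in the type I subtypes. At equal depth 7.97% of putative cells held more endothelial UMIs than 95% of the type I cells of their mouse. This was so for 1.76% of type I cells and none of 95 type II cells, with a limit of only 1 UMI. Not thinned, the endothelial shares were 29.3% in putative, 5.02% in type I and 8.64% in type II cells. The same share was 31.9% ± 8.22 for the fibroblast list, 35.2% ± 5.85 for the satellite list and 44.6% ± 5.15 for the immediate early list, against 5.66%, 40.4% and 35.8% in type II and 3.91%, 3.94% and 4.4% in type I cells. In type I-matched putative cells these shares were 28.8%, 17.7% and 29.6%. Not thinned, they were 45.1%, 43.9% and 51.9% over the class. Fewer than 1 in 2 cells therefore exceeded the type I range for any single list at equal depth. The part of transcripts from other cells in the results was not tested beyond the fits without such cells.

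Immediate early genes, which neurons and other cells switch on within minutes of stimulation or handling, were higher almost throughout. Of 31 tested, which include Fosb and Zfp36l1, 30 were higher and none lower than in type I (median log2 difference 1.34, with 14.2% of all genes higher). In type I-matched cells 28 were higher and none lower (median 0.97, with 6.5% of all genes higher). Without the cells high in non-neuronal RNA the counts were also 28 and none (8.24% of all genes higher). The exception over the class was Sgk1, a serum- and glucocorticoid-induced kinase gene, at 0.12 (adjusted p = 0.25). Junb, another AP-1 subunit, stood at 693, 796, 591 and 858 CPM in mice 1 to 4, against 400 to 623 in type II and 208 to 257 for the type I mean (1.60 ± 0.05, adjusted p = 1.5e-29). Fos stood at 1277, 1192, 972 and 1479 CPM, against 1002 to 1468 in type II and 523 to 604 for the type I mean. Klf4, a zinc finger transcription factor, differed by 1.82 ± 0.10, and Atf3, a stress-induced transcription factor, by 1.36 ± 0.07. Putative cells overlapped type II for Fos and stood above it in the summed list, at 7745 ± 1028 CPM, against 6167 ± 980 in type II and 3347 to 3642 in the type I subtypes. Type II neurons were thus also above type I in this sum. The 95 cells rich in satellite transcripts reached 19882 ± 5151 CPM, and type I-matched cells 6051 to 7468 by subtype. Within mice the immediate early and fibroblast shares of putative cells had Spearman's rho of 0.59, 0.27, 0.60 and 0.34, and the fibroblast and neuron shares of -0.10, 0.04, -0.05 and -0.20, given as descriptions.

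**Figure D5:**
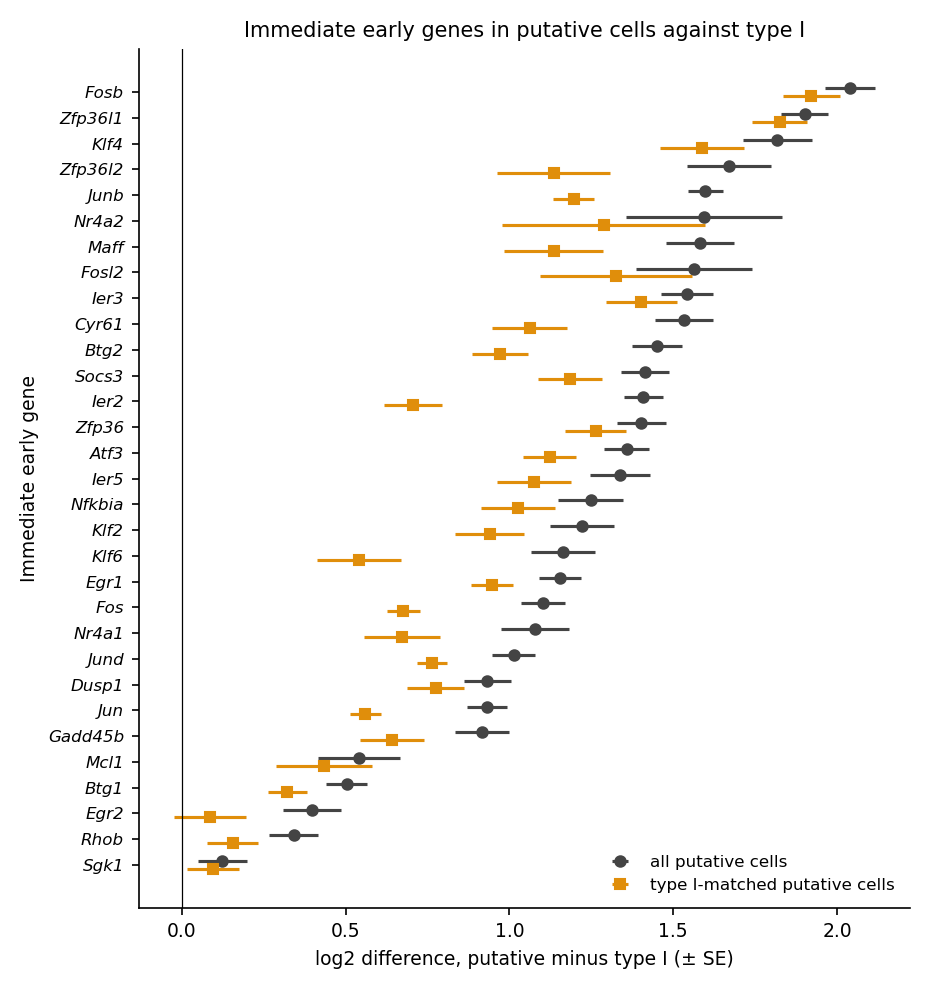
Log2 difference between putative and type I cells (x axis; lines are SE) for each immediate early gene tested (y axis), for all putative cells (circles) and for type I-matched putative cells against the labelled subtype (squares). Fosb has the highest circle at 2.04 and Sgk1 the lowest at 0.12, and every circle lies above 0.

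The promoters of early genes were searched for the sites that classic regulators of these genes are known to bind, shown here because the genes moved together. The 250 bases upstream of the start were taken from RefSeq on GRCm38.p6, where 38 windows of 27 listed genes were found. The cAMP response element TGACGTCA, which is its own reverse complement, was present in 3 of the 38 windows (7.89%), against 508 of 32851 windows of all genes (1.55%). It lay in the windows of Btg2, a growth inhibitor, of Dusp1, a phosphatase acting on MAP kinases, and of Maff, a small Maf factor. The AP-1 site TGACTCA, read on both strands, was in none of the 38 and in 4.46% of all windows, and 1 form of the serum response element, on both strands, in none and in 0.0609%. Capitals mark the cAMP response element, which starts 166 bases before the gene start in Btg2, 143 in Dusp1 and 29 in Maff. The window of Fosb holds none and is shown as the leading gene. The windows are chr7:19310046-19310295 (minus strand) for Fosb, chr1:134079156-134079405 (minus strand) for Btg2, chr17:26508473-26508722 (minus strand) for Dusp1 and chr15:79347270-79347519 (plus strand) for Maff, each written 5′ to 3′.
Fosb: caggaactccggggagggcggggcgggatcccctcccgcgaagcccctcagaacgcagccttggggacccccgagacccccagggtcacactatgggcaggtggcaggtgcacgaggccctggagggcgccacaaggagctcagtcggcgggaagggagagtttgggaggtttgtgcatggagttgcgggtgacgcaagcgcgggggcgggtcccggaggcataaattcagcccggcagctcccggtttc
Btg2: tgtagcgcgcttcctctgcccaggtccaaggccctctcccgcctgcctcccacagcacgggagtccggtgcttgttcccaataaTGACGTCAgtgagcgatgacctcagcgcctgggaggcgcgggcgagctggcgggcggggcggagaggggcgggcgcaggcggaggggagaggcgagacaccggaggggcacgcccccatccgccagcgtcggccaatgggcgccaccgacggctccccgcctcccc
Dusp1: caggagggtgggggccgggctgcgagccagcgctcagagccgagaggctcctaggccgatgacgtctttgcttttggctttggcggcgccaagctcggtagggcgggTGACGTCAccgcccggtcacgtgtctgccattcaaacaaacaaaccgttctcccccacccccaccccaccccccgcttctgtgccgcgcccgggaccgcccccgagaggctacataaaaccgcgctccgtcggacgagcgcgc
Maff: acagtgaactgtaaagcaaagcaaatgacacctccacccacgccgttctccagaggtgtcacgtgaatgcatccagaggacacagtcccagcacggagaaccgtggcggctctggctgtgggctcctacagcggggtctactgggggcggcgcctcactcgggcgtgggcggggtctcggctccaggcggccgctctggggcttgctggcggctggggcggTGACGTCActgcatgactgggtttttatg
Beside these sequences, the class exceeded type I by 1.45 ± 0.08 for Btg2, 0.93 ± 0.07 for Dusp1 and 1.58 ± 0.10 for Maff on the log2 scale (edgeR adjusted p = 1.5e-21, 2.2e-15 and 7.2e-18). In type I-matched cells the differences were 0.97, 0.77 and 1.13. A match in a window is a description and says nothing of binding.

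Heat shock and injury genes moved less evenly. Of 15 heat shock genes 10 were higher and none lower than in type I, and 6 and 1 in type I-matched cells. Over all genes 14.2% were higher and 9.13% lower in the first of these fits, and 6.5% and 6.81% in the second. Hspa1a, an inducible Hsp70 gene, stood at 577 ± 176 CPM, against 458 ± 200 in type II and 218 ± 40.3 for the type I mean (1.4 ± 0.07, adjusted p = 1.0e-21). Dnajb1, its cochaperone, differed by 1.36 ± 0.06. The summed list stood at 9522 ± 599 CPM, against 10078 ± 713 in type II and 7825 to 8316 in the type I subtypes. Of 11 axonal injury genes 7 were higher and 1 lower than in type I, with Npy (6.18) and Atf3 among those higher, 5 and 1 in type I-matched cells, and 4 and 1 without the cells high in non-neuronal RNA. In the last of these fits 8.24% of all genes were higher and 2.35% lower. The summed list stood at 1611 ± 154 CPM, against 1926 ± 493 in type II and 786 to 821 in the type I subtypes. From the same list Gap43, a growth cone protein gene of regenerating axons, was not called (0.72, adjusted p = 0.30).

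Genes of neuronal function were modestly lower. Of 25 neuron list genes 17 were lower and none higher than in type I (median log2 difference -0.25), and of 13 general type I genes 8 and none. In type I-matched cells 15 and 4 were lower and none higher, but without the cells high in non-neuronal RNA edgeR called none of either list. There 7 of the 25 and 3 of the 13 genes were below the type I mean at an unadjusted p under 0.05, and the median log2 differences were -0.13 and -0.11. Over all genes 9.13% were lower in the class, 6.81% in type I-matched cells and 2.35% without the cells high in non-neuronal RNA. Snap25 stood at 3559, 3074, 3497 and 2813 CPM in mice 1 to 4, against 1677 to 3541 in type II and 4097 to 4375 for the type I mean (-0.41 ± 0.10 against type I, adjusted p = 0.0011). Pvalb, the calcium buffer parvalbumin, stood at 2672 ± 349 CPM, against 2918 ± 779 in type II and 3467 ± 206 for the type I mean (-0.38 ± 0.09, 0.00071). Slc17a7, the vesicular glutamate transporter VGLUT1, stood at 456, 311, 359 and 270 CPM, against 40.9 to 227 in type II and 395 to 455 for the type I mean. Its call against type I (-0.30 ± 0.08, adjusted p = 0.0050) was lost without mouse 2 (-0.29, 0.066). Nefh, the heavy neurofilament gene, was called at -0.25 and lost its call without mouse 2, 3 or 4 (-0.29, -0.26 and -0.19, adjusted p = 0.057, 0.11 and 0.075). Prox1 (-0.14 ± 0.10, 0.32) and Scn1a, a voltage-gated sodium channel gene (-0.10, 0.41), were not called. The summed neuron list was 21787, 21533, 21089 and 17662 CPM in mice 1 to 4, against 17013 to 24426 in type II and 24867 to 25559 as means of the type I subtypes. Beside it, the satellite list stood at 10143 ± 515 CPM in the class, and total UMIs per cell were lower, so a lower share cannot be told apart from fewer neuronal molecules per cell.

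Respiratory chain genes of the nucleus were lower almost as a whole. Of 74 genes of oxidative phosphorylation 69 were lower and none higher than in type I (median -0.27), 71 and none in type I-matched cells (median -0.25), and 43 and none without the cells high in non-neuronal RNA. The shares of all genes that were lower in these fits were 9.13%, 6.81% and 2.35%, in that order. The medians over all genes were -0.01, -0.07 and -0.002. Cox5a, a cytochrome oxidase subunit gene, stood at 2527, 2393, 2215 and 1962 CPM in mice 1 to 4, against a mean of 1265 in type II and 2946 in type I (-0.38 ± 0.09, adjusted p = 0.0011). The summed list stood at 67114 ± 4756 CPM, against 57144 ± 7315 in type II and 78682 to 83087 in the type I subtypes. The 13 genes encoded by mitochondrial DNA went otherwise, with 3 higher and none lower against type I and 11 and none in type I-matched cells. Over all genes 14.2% were higher in the first of these fits and 6.5% in the second. Among the 13 mitochondrial genes, mt-Co1 was not called over the class (0.17 ± 0.10, adjusted p = 0.23). Of 39 synaptic vesicle genes 21 were lower and 4 higher, and of 25 axonal cytoskeleton genes 19 and 2. In type I-matched cells the counts were 14 and 1 of 37, and 16 and none of 24. Without the cells high in non-neuronal RNA they were 2 and 4 of 39, and 5 and none of 25. In that fit, with 352 putative cells, 2.35% of all genes were lower and 8.24% higher. Few synaptic vesicle genes were still called lower there, while 5 of the 39 estimates were above 0. Their median log2 difference was -0.11, against -0.24 over the whole class. Unc13a, a vesicle priming factor, differed by -0.63 ± 0.14 (adjusted p = 0.00061) and Stmn4, a tubulin-binding stathmin, by -0.51 ± 0.10 (0.00014). Of 15 Schwann cell and myelin genes 3 were lower and 2 higher than in type I, where 9.13% of all genes were lower and 14.2% higher. These counts are not read further.

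The largest decreases from type I were of rarely detected genes. Esm1, an endothelial secreted protein gene, had 1 UMI in putative cells, against 142 in type I cells, a ratio of 0.132 after scaling to total UMIs (exact 95% interval 0.00332 to 0.748). Wdr5b had 1, against 127 (0.148, 0.00371 to 0.838), Lingo3 2, against 216 (0.174, 0.0209 to 0.635), and Proscos 4, against 278 (0.270, 0.0730 to 0.699). These intervals pool UMIs over cells and mice and cover counting error only. The genes were picked as the lowest called in the same data, so the intervals are a description. The other 6 named by the rule were Bbof1 (-1.31), Taf1c (-1.25), Rrp12 (-1.23), Wdr17 (-0.99), Etohi1 (-0.86) and Zfp763 (-0.85). Each of the 10 lost its call without at least 1 of the mice (adjusted p between 0.051 and 0.33), while every estimate that could be fitted stayed below 0. Rrp12 was then between -1.08 and -1.15 and Wdr17 at -0.96, close to their values over all mice, and Taf1c was at -0.78 without mouse 2.

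Set against type II, the class carried more of the general type I genes and of the connective tissue and early genes. Of 13 general type I genes 11 were higher and none lower than in type II (median 0.91), of 31 immediate early genes 21 and 1 (median 0.61), and of 15 fibroblast genes 7 and none. Of the neuron list 11 of 25 were higher and 5 lower, and of the satellite list 3 of 15 and none. Over all genes 6.96% were higher and 6.41% lower than in type II. Prox1 differed by 2.71 ± 0.31 (adjusted p = 2.0e-09) and Slc17a7 by 1.38 ± 0.17 (7.7e-09). The highest differences were of Foxc1 (4.86 ± 0.80), Ttn (4.08 ± 0.72), Tnfrsf11b (3.61 ± 0.54), the anion exchanger gene Slc26a7 (3.44 ± 0.58), the intermediate filament gene Des (3.21 ± 0.54), the carbonic anhydrase gene Car12 (3.19 ± 0.46) and Otor (2.83 ± 0.23). Of these Ttn and Car12 were near or below their type I mean, at 25.2 and 41.0 CPM, against 27.9 and 57.5 for the type I mean. The lowest, beside Dupd1, Prph, Th and Myl1, were Kcnc4, a fast potassium channel gene (-6.93 ± 0.52), and Pcp4, a calmodulin regulator (-6.25 ± 0.28). The 4 mark genes were also higher than in type II, by 0.94 ± 0.14 for Fosb, 1.59 ± 0.11 for Coch, 1.23 ± 0.09 for Apod and 1.65 ± 0.16 for Zfp36l1 (adjusted p = 2.2e-06, 2.1e-16, 3.1e-15 and 1.0e-11). With 95 type II cells in all, the type II sums rest on 15 to 34 cells a mouse.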

How the data were processed

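The authors deposited UMI counts of each gene in each cell, not normalized, made with Cell Ranger 2.0.1 on mm10, with Seurat 1.4 also named, per the submitters' processing notes. The natural log normalized table that the authors also deposited was not used. Cell classes came from the authors' deposited annotation, and doublets were not called again. The 4 mice were the replicates. UMIs were summed per mouse and population into 20 sums over 5 populations, and tested with edgeR 4.0.16 (quasi-likelihood, TMM, filterByExpr, R 4.3.3), with the mouse as a block because each animal gave every population. Putative cells were set against the mean of the 3 type I subtypes, weighted equally,, and against type II. P-values are two-sided and Benjamini-Hochberg adjusted over all 13005 genes tested. The libraries held 15151343 to 27309045 UMIs. Summaries and matching used Python 3.11.15, numpy 2.4.6, scipy 1.17.1 and pandas 2.3.3. The edgeR fit was also run on simulated sums with known changes in the putative class. These sums held no differences between subtypes and no mixture of cell types, so they do not bear on effects of mixing.

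Members and gene lists were chosen with earlier results of these data known. Genes were named by rule: the 10 highest and 10 lowest log2 differences among called genes with 100 or more UMIs in whichever population is higher and 1 direction in all 4 mice, up to 4 genes a list with the largest difference, and members of the study, subtype, type and neuron lists. Some genes picked this way are left out here. Single mice were compared for direction with 1 CPM added. Cells high in non-neuronal RNA were those with over 2.92% of UMIs from 115 list genes, the level of percentile 99 of type I cells. Alternatives were other size factors, DESeq2 1.42.0, no low-count filter, no block, equal cell numbers, thinning to 2000 UMIs and leaving out mice or cells. The fits of matched cells were added after seeing the data.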

Additional observations from a re-analysis of the deposited data

Results flagged for a closer look

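In 10 of 124 sets of 4 mouse values for putative cells, 1 mouse lay far from the others by Dixon's ratio. Chance alone gives this in about 1 set of 20 for independent, normally distributed values. The sets here share genes and some hold mostly zeros, so their count is not read against that rate. The summed neuron list was low in mouse 4, at 17662 CPM, against 21089 to 21787 in the others. Npy was high in mouse 2, at 296 CPM, against 195 to 204. Abi3bp was low in mouse 3, at 16 CPM, against 27.5 to 29.3. Of the myelin genes, Mbp was low in mouse 2, at 970 CPM, against 1071 to 1091, and Pmp22 in mouse 4, at 775 CPM, against 984 to 995. Gjb2, the gap junction protein connexin 26, was high in mouse 1, at 78.0 CPM, against 48.2 to 51.8, and Kcnb2, a potassium channel gene, in mouse 3, at 8.48 CPM, against 4.99 to 5.57. Esm1 (0.624 CPM), Wdr5b (0.943) and Lingo3 (1.25) were found in 1 mouse each and at 0 in the others, from 1 or 2 UMIs. Such values are flagged by construction.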

How the results depend on the processing

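Sums with fewer cells or molecules hold less to test by construction, and the cause of other changes was not tested. Against type I, with 3031 genes called, equal cell numbers gave 417, thinned cells 1455, leaving out cells high in non-neuronal RNA 1375, matched cells 1593, matched cells low in non-neuronal RNA 1283, and leaving out a mouse 1899 to 3024. Against type II (1739), equal cells gave 680, thinned cells 717 and leaving out a mouse 1075 to 1744. Against IA (3591), IB (2970) and IC (3060), equal cells gave 460, 305 and 338, thinned cells 1619, 1359 and 1446, and leaving out cells high in non-neuronal RNA 2196, 1474 and 1757. Leaving out a mouse gave 2519 to 3443, 1826 to 2846 and 2003 to 2973. Without the replicate block 2346 genes were called against type I and 1581 against type II, 2804, 2060 and 2216 against IA, IB and IC. The share matched to type I (61.7%) was 46.4% at 1000 UMIs, 84.9% at 4000 (275 cells that deep), 72.6% not thinned, 53.2% with 15 genes a type, 80.9% without and 51.8% with a stricter ratio of 100, and 78.4% without cells with 3 or more Fabp7 UMIs. Leaving out a mouse gave 59.1% to 64.3%. The type II share (18.8%) was 7.05% at 4000 UMIs, where shallower cells are also left out, and 0.983% without the Fabp7 cells. The unmatched share (19.6%) was 35.5%, 8.09%, 8.50%, 28.6%, 0% and 29.4% in the order of the first 6 settings. The class took 4.4% of cells with at least 4000 UMIs. Of 79 genes named against type I, 889 of the recomputed values kept their call or lack of one, 114 lost the call, 9 gained it and 19 changed sign. A change of sign was counted only where the gene was called before or after the change of setting. Values called in neither count as kept whatever their sign, here and against type II. In matched cells, and in those low in non-neuronal RNA, values were -0.53 and -0.58 for Fabp7, -0.57 and -0.44 for Ednrb, -0.92 and -0.78 for Hes5, -0.18 and -0.18 for Lyz2, -0.25 and -0.24 for Myl1, and -0.50 and -0.95 for Cplx2; Otos (-0.14) turned only in the second. Without the Fabp7 cells Fabp7 was -0.12, Hes5 -0.53 and Dupd1 -0.12, and without cells high in non-neuronal RNA Hes5 was -0.41, Dupd1 -0.016 and Otos -0.10. Of 30 genes named against type II, 338 values held, 7 gained the call and 3 changed sign: Fabp7 (0.95) and Npy (0.68) in thinned cells, where the median of all genes was 0.35, and Apoe (-0.59) with equal cells.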

Other observations

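Of 34 potassium channel genes tested, 3 were higher and 4 lower in the class than in type I, where 14.2% of all genes were higher and 9.13% lower, so these counts are no result about channels. Kcnk2, a mechanically gated leak channel gene, stood at 40.4, 29.3, 39.6 and 6.42 CPM in mice 1 to 4, against 13.7 ± 6.84 in type II and 5.38 ± 0.30 for the type I mean (2.44 ± 0.22, edgeR adjusted p = 6.7e-13), and 1 cell held 16.9% of its 124 UMIs. In type I-matched cells its log2 difference was 2.51 ± 0.33. Of 11 sodium channel genes 1 was higher and 2 were lower, and of 20 calcium-binding genes 4 and 8.

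Single cells held nearly all transcripts of some blood cell genes, chosen after their values had been seen. Pf4, platelet factor 4, had 777 of its 816 putative UMIs in 1 cell of mouse 4, and Ccl5, a chemokine gene of leukocytes, 237 of 249 in 1 cell of mouse 3. The macrophage and leukocyte list stood at 700 CPM in putative cells of mouse 4, against 618 in type II and 564 to 726 in the type I subtypes of that mouse, and at 99 to 208 in putative cells of mice 1 to 3. Lyz2, lysozyme of myeloid cells, was called over the class (1.26 ± 0.16, adjusted p = 1.0e-08), with 46.2% of its UMIs in 1 cell, and differed by -0.18 ± 0.17 in type I-matched cells (adjusted p = 0.56).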
